A study of Arabidopsis thaliana with 16 samples.

Results

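The genes described here were higher in Arabidopsis plants carrying zed1-D than in wild type (WT) after 48 h at 28 °C, and not at earlier hours. ZED1 encodes a pseudokinase of the ZRK family that acts in immune recognition, and zed1-D is a dominant mutant allele of it. For each gene, d was the difference in log2(CPM + 1), zed1-D minus WT, between libraries of the same hour and replicate number, where CPM is a gene's read count scaled to the counted total of its library. A gene was kept if d was at least 1 in both pairs at 48 h and if its mean d stayed below 0.5 at 0, 3 and 12 h. The rule kept 115 of the 25444 genes with a read in any library, which is 0.452%. A further 845 genes had d of at least 1 in both pairs at 48 h but were past the limit at an earlier hour, so 960 genes (3.77%) met the condition at 48 h. The genes were thus selected on the genotype difference itself, at all 4 hours, and no test is given of it.

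The study asked how the transcriptome of zed1-D differs from that of WT after a move from 18 to 28 °C. Plants of both genotypes, zed1-D and Columbia-0 wild type, grew at 18 °C with 16 h of light a day. Once their stems had bolted they were moved, and inflorescences with young leaves were taken 0, 3, 12 and 48 h later. There were thus 4 zed1-D groups and 4 WT groups, each with 2 libraries of poly(A) RNA. The labels also call the plants seedlings, do not describe the allele, give no clock time for the sampling, and do not define a replicate. P-values therefore measure only the spread between these libraries, which may be technical.

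Warmth speeds growth in Arabidopsis and weakens many immune responses. Growing tissue needs new ribosomes, which are assembled in the nucleolus, new plastids and mitochondria, and proteins that loosen and extend the cell wall. The plant clock, whose morning genes CCA1 and LHY encode MYB transcription factors, sets daily rhythms in many of these processes.

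Libraries held 4.74 M to 11.39 M counted reads, with at most 5.86 M in replicate 1 and at least 10.35 M in replicate 2. ZED1 itself was at 4.08 to 16.7 CPM in zed1-D and at 3.80 to 12.3 CPM in WT over all hours, which does not check the labels of an allele that keeps the transcript. PR1, the marker gene of salicylic acid defence, was at 362 and 610 CPM in zed1-D at 48 h, against 34.4 and 54.4 CPM in WT. The summed CPM of 25 leaf photosynthesis genes lay between 55776 and 98828 in every library, and that of 24 floral and meristem identity genes between 378 and 597, so markers of the labelled tissue were present. At 48 h the photosynthesis sum was 56035 to 57789 CPM in zed1-D, against 60185 to 77319 CPM in WT. The floral identity sum was 446 to 487 CPM in zed1-D, against 520 to 597 CPM in WT, and that over 23 tapetum and pollen wall genes 483 to 555 CPM in zed1-D, against 698 to 800 CPM in WT. Sums were also lower in zed1-D, without overlap, for mature pollen (86.2 to 88.9 CPM, against 105 to 108 CPM in WT), seed (36.9 to 38.6, against 44.1 to 52.4) and nectary and stigma genes (43.9 to 48.9, against 54.1 to 57.5), so for 6 of 9 tissue lists. Vascular, epidermal and root sums overlapped. Of the 167 marker genes in 9 tissue lists only CAB2, a photosynthesis gene, was among the 115. The part of tissue makeup in the results was not tested, and in whole tissue fewer cells of a type and less RNA per cell cannot be told apart.

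At 48 h the mean d of the 115 genes ran from 1.03 to 2.52 with a median of 1.35, against a median of 0.0026 over all 25444 genes. The median was 1.33 in the first pair of libraries and 1.37 in the second, and the pairs differed by a median of 0.21 for a gene. Both zed1-D libraries lay above both WT libraries at 48 h for 112 of the genes. The rule nearly fixes this count, its share over all genes was not taken, and nothing is read from it. Medians of d before that were 0.08 (0 h), 0.02 (3 h) and 0.12 (12 h). The limit was one-sided, and 9 genes averaged below -0.5 at 12 h and 8 at 3 h. GASA6, which encodes a gibberellin-regulated peptide, had the lowest such mean, -1.33 at 12 h. Levels were mostly moderate: 75 of the genes averaged at least 10 CPM in zed1-D at 48 h and 24 averaged under 5 CPM. In 3 genes no WT library at 48 h held a read, and against a floor of 3 reads over both libraries AT5G55410 was at least 10.08-fold, AT5G64100 at least 7.99-fold and AT4G15750 at least 5.91-fold higher in zed1-D.

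**Figure D1:**
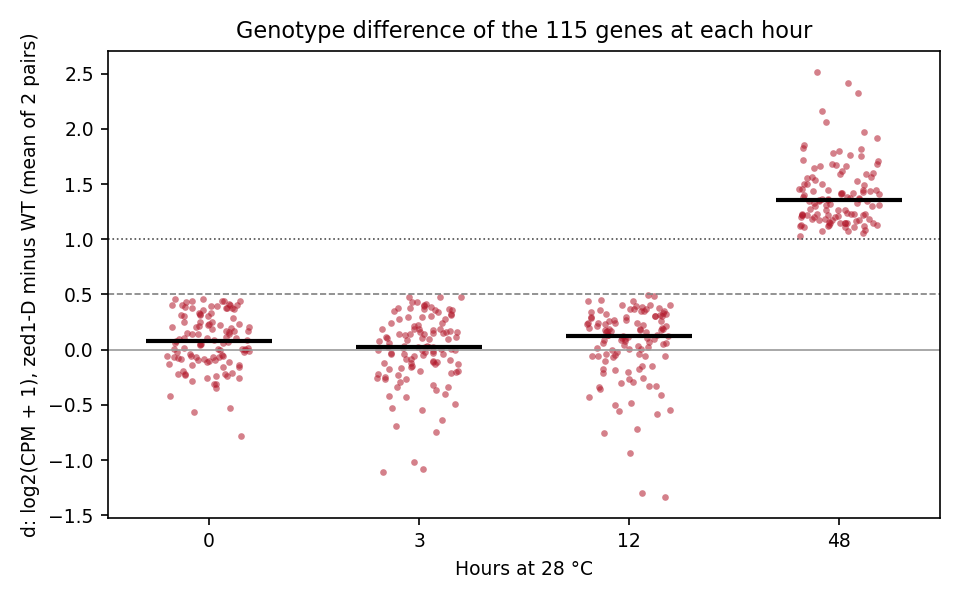
Each point is 1 of the 115 genes, with hours at 28 °C on the x axis and the mean over 2 pairs of d, the log2(CPM + 1) of zed1-D minus WT, on the y axis. Black bars are medians (0.08, 0.02, 0.12 and 1.35), the dashed line is the limit of 0.5 for the earlier hours and the dotted line marks 1. The gap between 12 and 48 h follows from the rule.

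Genes next to the limits differed little across them. AT3G13672, AT2G04795 and AT3G16660 were just inside, with a lower pair value of 1.00, 1.01 and 1.01 at 48 h, and PME44, AT3G21530 and CYP72A14 just outside at 0.999, 0.996 and 0.996. At the limit for earlier hours, AT1G68440, CYP71B36 and AT5G39890 had highest means of 0.497, 0.491 and 0.477. HSP18.2, AT1G25550 and AT1G49570 missed it at 0.504, 0.506 and 0.509.

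The difference at 48 h arose in several ways. In 91 of the 115 genes both zed1-D libraries at 48 h lay above all 6 earlier zed1-D libraries, which held for 11.4% of all genes. Of these, 78 had WT libraries at 48 h that overlapped the earlier WT libraries, 8 had WT libraries above all earlier ones (7.85% of all genes) and 5 had WT libraries below them (3.08%). In the remaining 24 genes the zed1-D libraries at 48 h overlapped earlier zed1-D levels, and in 3 of those, RAV2, AT4G04404 and CAB2, WT at 48 h lay below every earlier WT library. The median change between 0 and 48 h was 1.37 on the log2(CPM + 1) scale in zed1-D and -0.05 in WT, against medians of 0.03 and 0.02 over all genes. Since the rule read the 48 h libraries, these counts describe the genes and are not tests.

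Changes within a genotype before 48 h were taken from a fit over all genes, but they are not independent of the rule, which read the same libraries as differences between genotypes. Its limit removed genes that were higher in zed1-D before 48 h: of the 844 tested genes with d of at least 1 in both pairs at 48 h that were past the limit, 669 were called higher in zed1-D at 12 h. The distance between the counts below and their backgrounds is therefore partly set by the rule, and nothing is read from it. The expression filter kept 112 of the 115 genes, and left out AT1G53540, AT3G14700 and AT4G15750. In zed1-D at 3 h against 0 h, 9 of the 112 were higher and 4 lower by edgeR's quasi-likelihood test at an adjusted p under 0.05, where 2.02% and 0.699% of all 19312 tested genes were. In zed1-D at 12 h against 0 h, 7 were higher and 12 lower, with backgrounds of 10.4% and 4.38%. WT plants had 10 higher and 1 lower at 3 h (backgrounds 0.839% and 0.937%) and 1 higher and 2 lower at 12 h (0.823% and 0.689%). With the replicate number as a block the counts were larger. In zed1-D, 20 were then higher and 27 lower at 3 h, with blocked backgrounds of 12.8% and 11.1%. At 12 h, 24 were higher and 28 lower in zed1-D, with backgrounds of 24.4% and 19.5%. In WT, 25 were higher and 16 lower at 3 h (9.35% and 10.9%), and 18 higher and 21 lower at 12 h (10.4% and 10.9%). Comparisons within a genotype share their 0 h libraries. Gene values below are from the fit without the block unless the block is named, and fits with 1 library left out had no block. On all 16 libraries, every call made without the block was also made with it. Leaving out 1 library ended many of these calls: 13 of 46 pairs of a gene and a comparison stayed past the threshold without any single one of the compared libraries.

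Genes of the nucleolus and the cytosolic ribosome made up 12 of the 115, in a grouping by annotated role that was made after the genes were known. On the median both genotypes held less of these transcripts at 3 and 12 h than at 0 h, and at 48 h zed1-D was above its starting level and WT was not. Median change between 0 and 48 h was 0.42 in zed1-D, with all 12 genes above 0, and -0.49 in WT, with 2 above 0. The rule read the 48 h libraries, the share of all genes above 0 was not taken, and nothing is read from these counts. In 6 of the 12 both zed1-D libraries at 48 h lay above every earlier zed1-D library, which held for 11.4% of all genes. At 12 h the median change was -0.63 in zed1-D and -0.45 in WT. In zed1-D at 12 h against 0 h 4 of the 12 fell, FIB2, PWP2, SWA1 and AT4G04940, where 4.38% of all tested genes were lower, and with the block 8 were lower and 1 higher (19.5% and 24.4% of all). In WT at 12 h none was called (0.689% of all were lower), and with the block 8 were lower (10.9% of all).

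FIB2 encodes fibrillarin, the methyltransferase of the snoRNPs that modify ribosomal RNA. In zed1-D it was at 85.7 and 65.1 CPM (0 h), 37.3 and 28.1 (3 h), 32.0 and 24.8 (12 h) and 77.3 and 74.3 (48 h). WT libraries held 66.2 and 45.5 CPM (0 h), 28.5 and 20.4 (3 h), 24.9 and 23.0 (12 h) and 25.1 and 21.0 (48 h). Levels at 48 h were within the range of 0 h in zed1-D and below every 0 h library in WT. FIB2 fell by 1.44 on the log2 scale in zed1-D at 12 h against 0 h (SE 0.31, edgeR adjusted p = 0.00846). The call was lost without zed1-D 0 h replicate 1 (adjusted p = 0.0567) or zed1-D 12 h replicate 2 (0.0803), and with the block the adjusted p was 4.78e-13.

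PWP2 and SWA1 are WD-40 proteins of the complex that processes the small-subunit RNA. PWP2 was at 45.6 and 44.3 CPM in zed1-D (0 h), 31.2 and 26.6 (3 h), 31.7 and 27.7 (12 h) and 54.8 and 56.2 (48 h). In WT it was at 34.7 and 36.3, 23.0 and 22.2, 22.4 and 27.6, and 24.6 and 25.8 CPM at those hours. Every zed1-D library at 48 h lay above all other libraries, and the WT libraries at 3, 12 and 48 h all lay between 22.2 and 27.6 CPM. PWP2 fell in zed1-D at 3 h (-0.68, SE 0.16, edgeR adjusted p = 0.0436), a call lost without any single one of the 4 libraries. With the block and all libraries its edgeR adjusted p was 8.92e-06. SWA1 had 37.7 and 50.0 CPM in zed1-D at 48 h, against 16.4 and 21.1 CPM in WT, and overlaps SCC3 on the other strand (61.9 CPM in zed1-D at 48 h). Without known strand, reads of their overlap cannot be told apart.

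HDA3 and HDT4 encode histone deacetylases of the plant HD2 family, which are found in the nucleolus. HDA3 was at 84.3 and 114 CPM in zed1-D at 48 h, against 28.9 and 43.5 CPM in WT. The WT values lay below all WT libraries at 0 h, at 47.5 and 85.0 CPM, and the zed1-D values overlapped those of zed1-D at 0 h, at 71.5 and 99.5 CPM. NOP10, a protein of the snoRNPs that form pseudouridine, had 72.8 and 65.3 CPM in zed1-D at 48 h, against 35.3 and 29.3 CPM in WT. AT4G04940, a WD-40 protein, fell in zed1-D at 12 h (-0.86, SE 0.18, edgeR adjusted p = 0.00874) and at 3 h (-0.84, SE 0.18, adjusted p = 0.0365), and in WT at 3 h (-0.86, SE 0.19, 0.0473). Its 12 h call was lost without zed1-D 0 h replicate 2 (0.0657) or 12 h replicate 2 (0.0799), and the 3 h calls without any single library (adjusted p 0.129 to 0.254 in zed1-D and 0.130 to 0.304 in WT). The ribosomal protein gene AT5G39850 took another course, with WT at 48 h (5.29 and 5.96 CPM) above all earlier WT libraries and zed1-D at 17.7 and 16.4 CPM.

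Plastid and mitochondrion genes, 9 in number, had a similar median course, at -0.63 in zed1-D and -0.45 in WT at 12 h, and 0.41 in zed1-D and -0.62 in WT at 48 h, relative to the genotype's own 0 h. WHY3, a member of the Whirly family of proteins that bind single-stranded DNA in organelles, had 43.0 and 45.8 CPM (0 h), 27.6 and 30.1 (3 h), 16.5 and 17.9 (12 h) and 37.9 and 48.0 (48 h) in zed1-D. WT libraries were at 32.1 and 39.6, 25.1 and 23.4, 18.7 and 17.38, and 17.01 and 21.5 CPM at those hours. At 12 h the genotypes overlapped, and at 48 h they did not. WHY3 fell in zed1-D at 12 h against 0 h by 1.39 on the log2 scale (SE 0.15, edgeR adjusted p = 0.000117), a call kept without each of the 4 libraries. In WT at 12 h it fell by 1.04 (SE 0.15, edgeR adjusted p = 0.00693), and this was lost without WT 0 h replicate 2 (0.0757) or WT 12 h replicate 2 (0.108).

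AT5G14580, a polyribonucleotide nucleotidyltransferase, also fell in zed1-D at 12 h (-1.08, SE 0.19, edgeR adjusted p = 0.00281), without losing the call when 1 library was left out. It had 21.6 and 19.4 CPM in zed1-D at 48 h, against 9.26 and 7.77 CPM in WT. In all, 4 of these 9 fell in zed1-D at 12 h and 1 in WT, where 4.38% and 0.689% of all tested genes were lower. With the block 7 were lower in zed1-D and 6 in WT, against 19.5% and 10.9% of all. CIA2, a regulator of genes for chloroplast protein import, was the most read of them, with 189 and 266 CPM in zed1-D at 48 h, against 72.6 and 105 CPM in WT. EMB2001, annotated as a P-loop NTPase, had the smallest mean d of the 115, 1.03, and its pair values of 1.02 and 1.04 were among the closest.

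**Figure D2:**
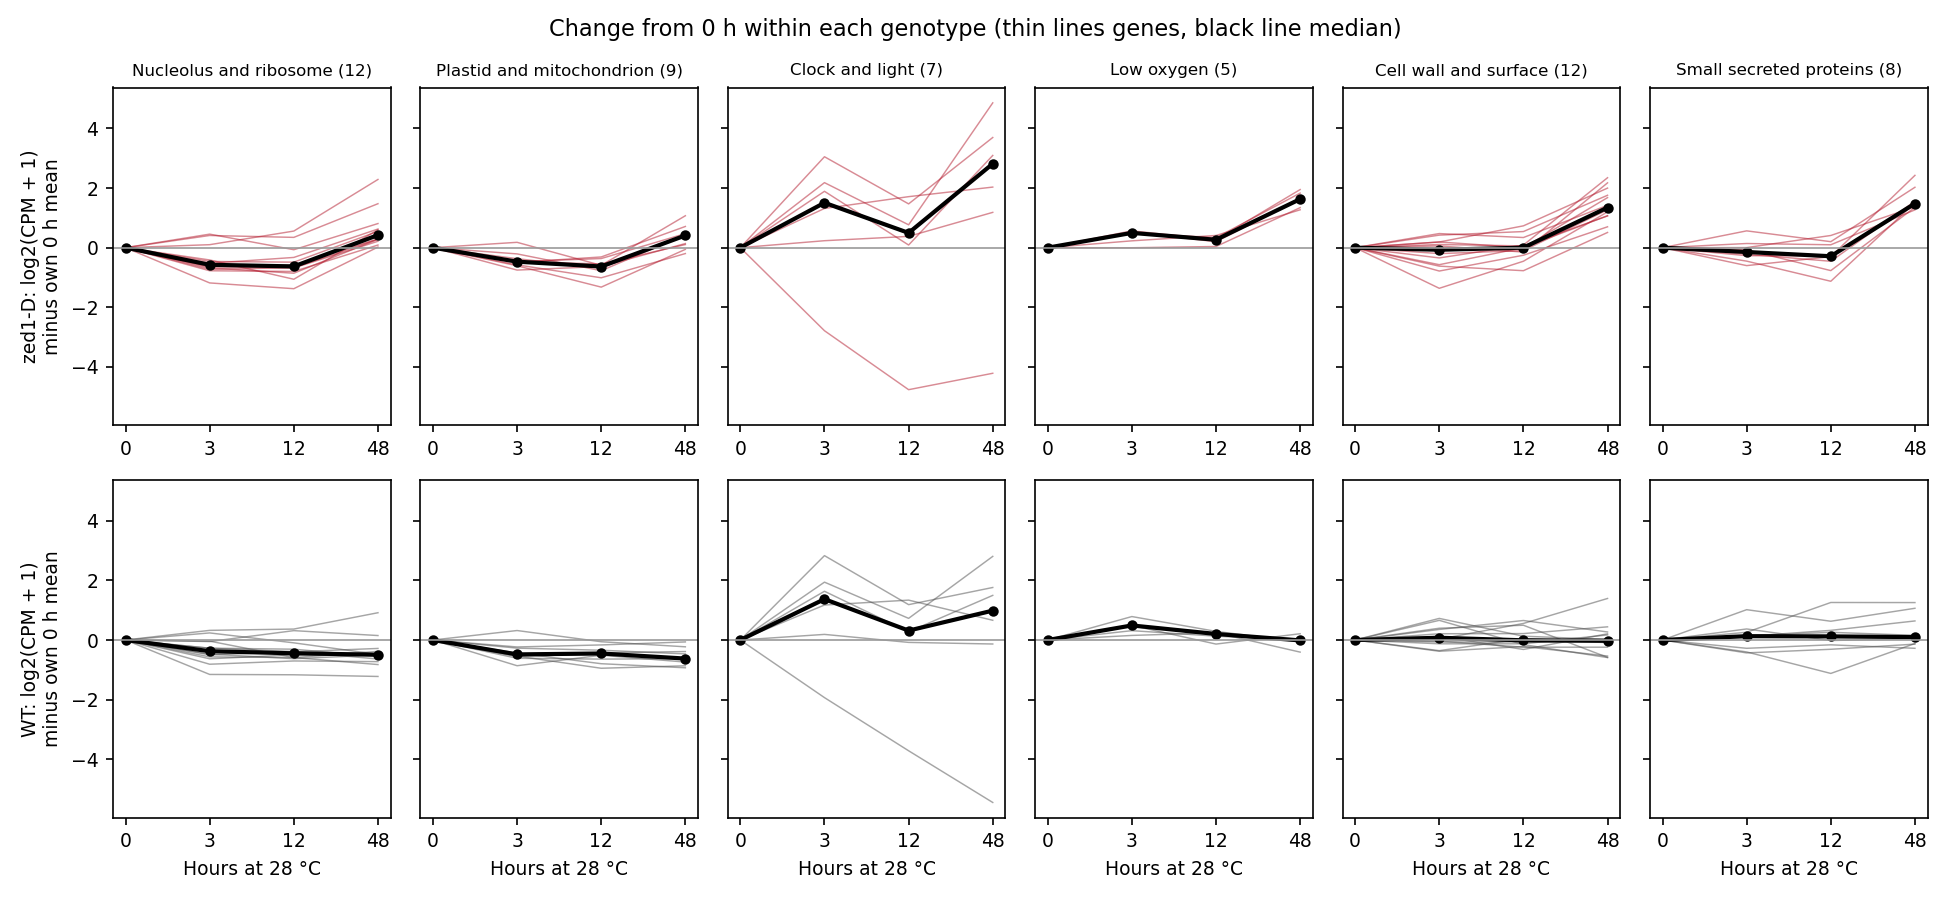
Hours at 28 °C are on the x axis, and the mean log2(CPM + 1) of 2 libraries minus the same genotype's 0 h mean is on the y axis, with zed1-D in the upper row and WT in the lower. Thin lines are single genes and black lines medians of 6 role groups. For nucleolus and ribosome genes the zed1-D median was -0.63 at 12 h and 0.42 at 48 h and the WT median -0.45 and -0.49.

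Several promoters of these genes hold the site II motif (TGGGCC or TGGGCT, either strand), an element of ribosomal protein and cell cycle promoters. It was searched for after the genes were seen, in the 250 bases before the RefSeq gene start. A match was found for 6 of the 12 nucleolus and ribosome genes and 3 of the 9 organelle genes, against 20.3% of the 24232 genes with such a window and 14.0% of the 114 windows of the whole set. The telo-box (AAACCCTA), often paired with site II in such promoters, was present in 1 of the 12 and in 4.12% of all. Windows of AT1G78190, encoding a Trm112-like protein, and AT1G23100, encoding a GroES-like protein, are shown because, among the genes of these groups with 2 or more copies, they alone had a window free of exons of another gene. Among windows with a match, an exon of another gene lay in 5 of the 6 of nucleolus and ribosome genes and 1 of the 3 of organelle genes. Over all genes it lay in 1787 of 4930 windows with a match, and in 28.7% of all windows. The windows shown are from TAIR10.1, chr1:29418995-29419244 on the minus strand and chr1:8195526-8195775 on the plus strand. Site II or its reverse complement is in capitals.
AT1G78190: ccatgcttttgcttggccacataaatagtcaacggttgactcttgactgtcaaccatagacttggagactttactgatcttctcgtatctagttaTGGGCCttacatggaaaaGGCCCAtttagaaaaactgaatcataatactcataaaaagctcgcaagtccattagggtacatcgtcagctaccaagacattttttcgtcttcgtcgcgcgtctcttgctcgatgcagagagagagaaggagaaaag
AT1G23100: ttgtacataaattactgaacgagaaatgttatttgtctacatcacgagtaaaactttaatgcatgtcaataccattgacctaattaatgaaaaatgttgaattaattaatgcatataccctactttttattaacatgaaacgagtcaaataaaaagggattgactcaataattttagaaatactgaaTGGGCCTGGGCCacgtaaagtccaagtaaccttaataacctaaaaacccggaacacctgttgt
AT1G78190 was at 6.60 and 5.88 CPM in zed1-D at 48 h, against 2.27 and 1.90 CPM in WT. AT1G23100 was at 7.38 and 11.7 CPM in zed1-D, against 3.02 and 3.88 CPM in WT.

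Clock and light genes numbered 7. LHY and CCA1, the morning MYB factors that repress evening genes, their relatives RVE1 and RVE8, the B-box protein BBX28, the photoreceptor-like PLPB and the light-harvesting protein gene CAB2 were all higher in zed1-D at 48 h. LHY, RVE1, RVE8 and CCA1 were also higher at 3 h than at 0 h in both genotypes. Both genotypes were sampled at each hour, so hour and genotype are not confounded, but the labels give no clock time. Plants moved together would share a time of day at 0 and 48 h, and not at 3 or 12 h. Even so, within WT LHY was higher and CAB2 lower at 48 h than at 0 h (values below), and the cause was not tested. Between the genotypes at 48 h, a difference in level, clock phase or time of sampling cannot be told apart from these labels.

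LHY was at 0.200 and 0.629 CPM in zed1-D (0 h), 4.56 and 6.22 (3 h), 1.61 and 1.17 (12 h) and 41.2 and 37.8 (48 h). In WT it was at 0.171 and 0.869, 4.43 and 4.94, 1.24 and 1.67, and 9.83 and 8.85 CPM at those hours. Both genotypes had their highest libraries at 48 h, and the genotypes overlapped at 0, 3 and 12 h but not at 48 h. Between 3 and 0 h LHY rose in zed1-D by 3.44 on the log2 scale (SE 0.44, edgeR adjusted p = 0.00248) and in WT by 2.97 (SE 0.43, 0.00525). Leaving out WT 3 h replicate 2 ended the WT call (0.0520).

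RVE8 activates evening genes. It was at 12.4 and 12.6 CPM in zed1-D at 3 h, against 0.400 and 0.898 CPM at 0 h, and at 13.1 and 14.3 CPM in WT at 3 h, against 1.71 and 0.579 CPM at 0 h. The rise was 4.06 in zed1-D (SE 0.46, edgeR adjusted p = 0.00149) and 3.72 in WT (SE 0.44, 0.00162) and was called without any 1 library. At 48 h RVE8 was at 20.002 and 20.2 CPM in zed1-D, against 5.10 and 7.05 CPM in WT, so that WT at 48 h lay below WT at 3 h. It was also higher in zed1-D at 12 h than at 0 h (2.39, SE 0.49, edgeR adjusted p = 0.0068), but not without zed1-D 12 h replicate 2 (0.109).

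CCA1 was at 12.8 and 8.73 CPM in zed1-D at 48 h, against 3.02 and 3.43 CPM in WT. It rose at 3 h in zed1-D (3.24, SE 0.44, edgeR adjusted p = 0.00337) and in WT (2.90, SE 0.44, 0.00621), the WT call being lost without WT 0 h replicate 2 (0.110) or WT 3 h replicate 2 (0.0797). RVE1, which links the clock to auxin, was at 21.6 and 18.6 CPM in zed1-D at 48 h, against 4.91 and 5.87 CPM in WT. Its rise at 3 h was 1.87 in zed1-D (SE 0.24, edgeR adjusted p = 0.00257) and 1.75 in WT (SE 0.24, 0.00361). Those calls were lost without zed1-D 0 h replicate 2 (0.0552) and without WT 0 h replicate 2 (0.0660). In a list of 24 morning and evening clock genes, assembled after the result was known, these 4 were the members and no other had d of at least 1 in both pairs, with a list median d of 0.09 at 48 h.

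CAB2 ran the other way over time. Its libraries held 2190 and 1260 CPM (0 h), 314 and 184 (3 h), 80.7 and 44.95 (12 h) and 106 and 74.1 (48 h) in zed1-D. WT held 2112 and 1123, 548 and 296, 164 and 82.8, and 47.1 and 24.9 CPM. WT libraries at 48 h were the lowest of WT, while zed1-D libraries at 48 h overlapped those at 12 h. CAB2 fell at 12 h against 0 h by 4.81 in zed1-D (SE 0.67, edgeR adjusted p = 0.00063) and by 3.78 in WT (SE 0.64, 0.0155), and in zed1-D at 3 h by 2.84 (SE 0.61, 0.0347). The first call was kept without each library, the second was lost without any of WT 0 h replicate 1 (0.0995), WT 12 h replicate 1 (0.0699) or WT 12 h replicate 2 (0.174), and the third without any single library (0.0706 to 0.273). With the block and all libraries, those falls had edgeR adjusted p of 4.28e-29, 1.72e-26 and 1.98e-23, in the same order. CAB2 has near-identical copies, so its count of uniquely mapped reads is uncertain.

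A G-box (CACGTG) was found in the windows of 3 of the 7 clock and light genes, against 6.93% of all windows and 7.02% of the 114. The 3 windows are shown because they hold the motif, with CACGTG in capitals. All 3 genes encode MYB-like clock factors and rose at 3 h in both genotypes. RVE8 also encodes such a factor and rose at 3 h in both genotypes, but its window had no match. In TAIR10.1 they are chr1:37872-38121 on the minus strand, chr2:19245341-19245590 on the plus strand and chr5:5692993-5693242 on the minus strand.
LHY: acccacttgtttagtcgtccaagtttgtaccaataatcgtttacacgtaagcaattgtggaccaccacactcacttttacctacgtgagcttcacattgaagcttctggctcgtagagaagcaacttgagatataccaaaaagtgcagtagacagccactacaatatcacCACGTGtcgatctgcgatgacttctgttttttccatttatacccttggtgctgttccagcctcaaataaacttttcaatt
CCA1: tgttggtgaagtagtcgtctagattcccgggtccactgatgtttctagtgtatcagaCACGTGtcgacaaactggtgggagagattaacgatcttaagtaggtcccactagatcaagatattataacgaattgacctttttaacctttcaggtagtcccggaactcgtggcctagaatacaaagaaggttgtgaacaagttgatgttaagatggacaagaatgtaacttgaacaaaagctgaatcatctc
RVE1: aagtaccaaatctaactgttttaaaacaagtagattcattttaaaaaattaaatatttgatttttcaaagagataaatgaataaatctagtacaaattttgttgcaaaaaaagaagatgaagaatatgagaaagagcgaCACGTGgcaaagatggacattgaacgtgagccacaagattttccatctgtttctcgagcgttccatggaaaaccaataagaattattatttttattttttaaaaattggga
The ABRE (ACGTGNC), which can overlap a G-box, was found in 4 of the 7 and in 9.03% of all windows. The evening element (AAAATATCT) was in none of the 114 windows and in 2.46% of all. A match describes letters in a window and is not a bound site.

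Cell wall and cell surface genes were 12 of the 115 and held 3 of the 4 genes with d of at least 2 in both pairs. The rule read d at 48 h and the group was formed afterwards, so that count only describes the genes. Median change between 0 and 48 h was 1.35 in zed1-D, with all 12 above 0, and -0.02 in WT. The share of all genes above 0 was not taken, and nothing is read from that count. EXPA1 encodes an expansin, a protein that loosens walls. In zed1-D it was at 81.5 and 96.1 CPM (0 h), 85.4 and 99.5 (3 h), 77.7 and 81.9 (12 h) and 354 and 459 (48 h). WT held 72.0 and 85.4, 113 and 150, 76.5 and 96.2, and 74.1 and 85.1 CPM. The 2 zed1-D libraries at 48 h stood above the other 14, which lay between 72.0 and 150 CPM. EXPA1 was higher in WT at 3 h than at 0 h (0.75, SE 0.15, edgeR adjusted p = 0.0334). That call was lost without any 1 of the 4 libraries. With the block and all libraries EXPA1 had an edgeR adjusted p of 2.46e-08. EXPA1 was the member of a list of 31 wall-loosening genes with a median d of 0.07 at 48 h. Of these, 6 had d of at least 1 and 2 of at most -1 in both pairs at 48 h, as did 3.77% and 1.11% of all genes.

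CWLP, a proline-rich protein linking wall and plasma membrane, was the most read gene of the set. It was at 1272 and 661 CPM in zed1-D (0 h), 818 and 435 (3 h), 808 and 356 (12 h) and 1637 and 1042 (48 h). WT held 1183 and 523, 908 and 403, 954 and 478, and 730 and 402 CPM. Replicate 1 was above replicate 2 in every group, so that both 48 h libraries of zed1-D were highest within their own replicate set but replicate 2 lay below the 0 h library of replicate 1. AT3G22121.1, a noncoding RNA on the other strand of CWLP, was also kept (63.9 and 18.0 CPM in zed1-D at 48 h, against 29.3 and 5.06 CPM in WT), and without known strand its reads cannot be told apart from those of CWLP.

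Peroxidases of class III crosslink or loosen wall polymers, and 3 were members. AT5G64110 had the largest mean d, with 22.7 and 17.64 CPM in zed1-D at 48 h, against 2.65 and 2.71 CPM in WT. Its zed1-D libraries at 48 h lay above all earlier ones and its WT libraries below all earlier ones, at 3.96 to 7.88 CPM. AT5G64100, its neighbour on the chromosome, had 1.55 and 1.42 CPM in zed1-D at 48 h and no read in WT. AT2G38380 was at 24.3 and 13.8 CPM in zed1-D at 48 h, against 7.18 and 5.78 CPM in WT.

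GRP9, AT5G46730 and DOT1 encode glycine-rich proteins. At 48 h GRP9 was at 43.5 and 69.0 CPM in zed1-D, against 7.94 and 11.2 CPM in WT. At 3 h the order was reversed, with 10.6 and 10.8 CPM in zed1-D, against 22.8 and 24.9 CPM in WT. DOT1 was at 80.4 and 169 CPM in zed1-D at 48 h, against 37.8 and 62.8 CPM in WT, and both genotypes exceeded all their earlier libraries. LAC7, a laccase that oxidises phenolics, was at 3.69 and 2.75 CPM in zed1-D, against 0 and 0.452 CPM in WT, and rests on few reads.

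**Figure D3:**
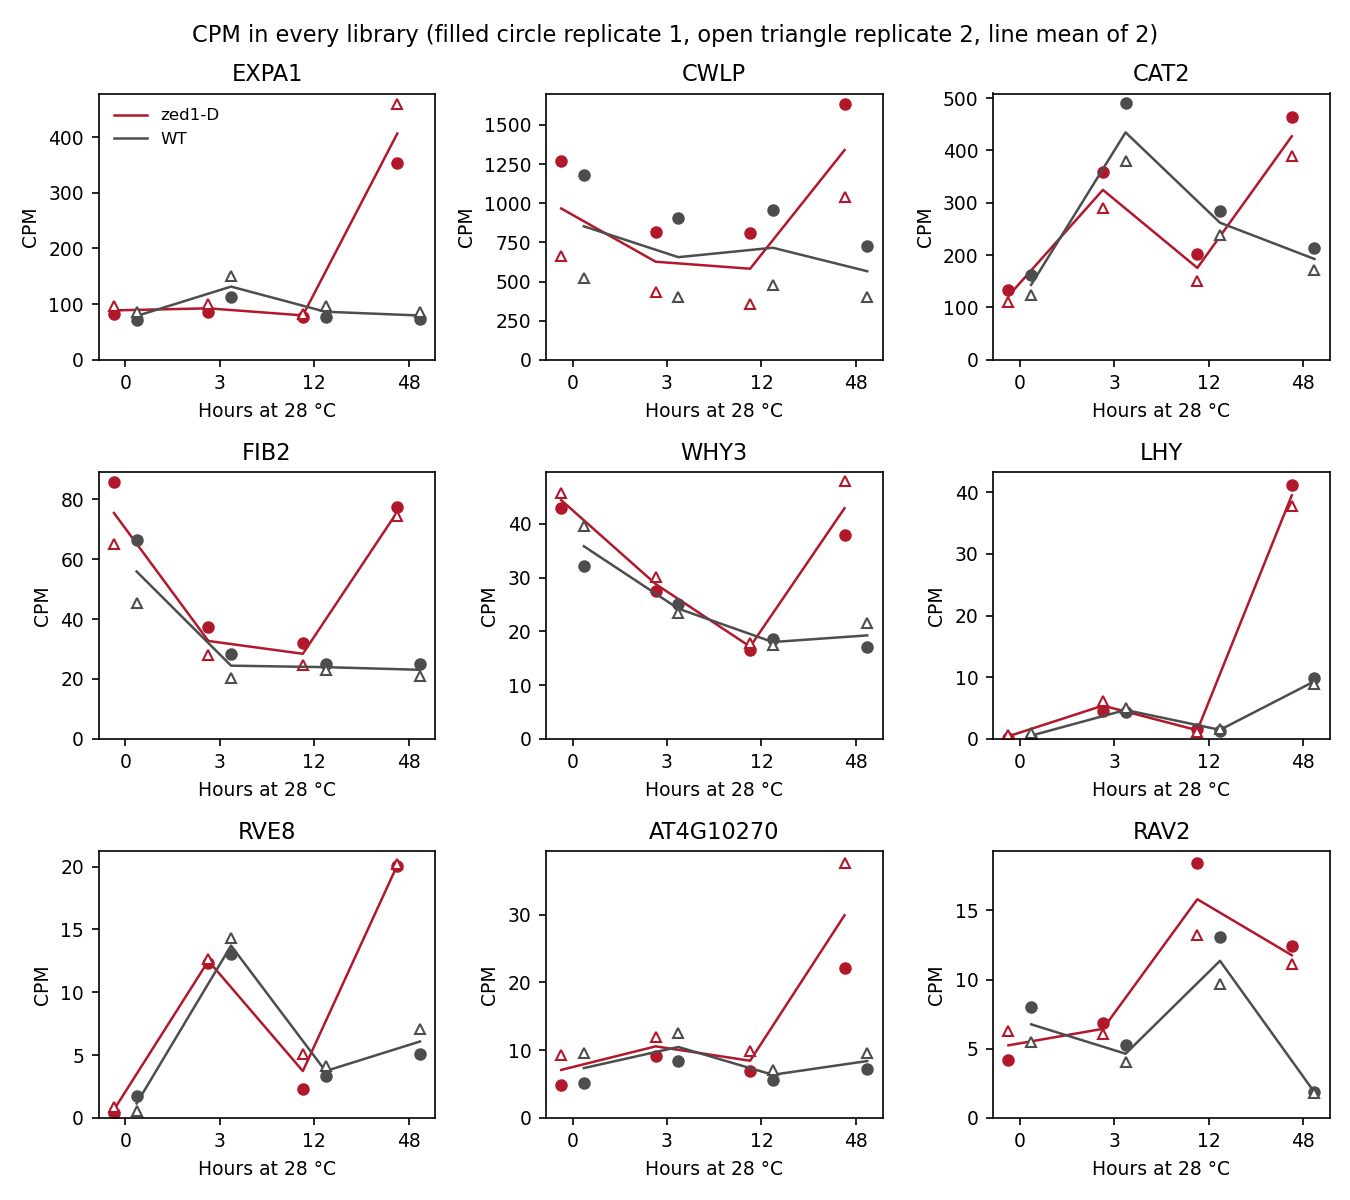
CPM on the y axis, starting at 0, is plotted against hours at 28 °C for 9 of the genes, with zed1-D in red to the left of WT in grey. Circles are replicate 1, triangles replicate 2 and lines the mean of 2 libraries. EXPA1, LHY and AT4G10270 were highest in zed1-D at 48 h, FIB2 and WHY3 were lower at 3 and 12 h than at 0 h in both genotypes and differed between them at 48 h, and RAV2 was lowest in WT at 48 h.

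Small secreted proteins, 8 in all, had a median change of 1.48 between 0 and 48 h in zed1-D and 0.10 in WT. In all 8 both zed1-D libraries at 48 h lay above every earlier one, as in 91 of the 115 and in 11.4% of all genes. DIR1 and AZI1 are lipid-transfer proteins needed for systemic immunity. DIR1 was at 75.7 and 80.2 CPM in zed1-D (0 h), 72.8 and 75.4 (3 h), 41.0 and 50.1 (12 h) and 182 and 222 (48 h). WT libraries were all between 63.9 and 92.7 CPM. DIR1 fell in zed1-D at 12 h (-0.80, SE 0.12, edgeR adjusted p = 0.00113) and kept the call without each library. It overlaps AT5G48480 on the other strand (62.5 CPM in zed1-D at 48 h). AZI1 was at 8.35 and 7.49 CPM in zed1-D at 48 h, against 2.27 and 1.26 CPM in WT.

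LTP2, another lipid-transfer protein, was at 173 and 97.5 CPM in zed1-D at 48 h, against 74.3 and 33.4 CPM in WT. GASA6 was at 141 and 113 CPM in zed1-D at 48 h, against 55.6 and 40.1 CPM in WT. At 12 h it was at 21.8 and 15.2 CPM in zed1-D, against 57.4 and 39.0 CPM in WT, so the order of the genotypes turned between 12 and 48 h. GASA1, of the same family, was at 70.5 and 74.3 CPM in zed1-D at 48 h, against 28.5 and 24.4 CPM in WT. PDF1.4, a defensin-like protein, was at 1.94 and 2.75 CPM in zed1-D, against 0.378 and 0.361 CPM in WT. PDF1.4 and LTP2 were the members of a list of 24 defensin, thionin and protease inhibitor genes. Of that list 6 had d of at least 1 and 4 of at most -1 in both pairs (3.77% and 1.11% of all genes). Its median d was -0.05, and its summed CPM at 48 h was 4995 and 4304 in zed1-D, against 7866 and 6237 in WT. Among 35 genes of auxin, gibberellin and brassinosteroid response, GASA1, GASA6 and SAUR36 were members and 5 had d of at least 1 in both pairs (3.77% of all genes). The list median of d was 0.13.

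Growth and hormone genes numbered 8. MEE62, a leucine-rich repeat kinase, was at 215 and 177 CPM in zed1-D at 48 h, against 71.6 and 51.7 CPM in WT. SAUR36, an auxin-responsive gene of senescing leaves, was at 7.38 and 6.17 CPM in zed1-D, against 1.13 and 1.99 CPM in WT. ACO1, which makes ethylene from ACC, was at 47.4 and 63.4 CPM in zed1-D, against 15.1 and 23.0 CPM in WT. MES9, a methyl esterase that can act on methyl salicylate and methyl jasmonate, was at 3.69 and 5.03 CPM in zed1-D, against 0.378 and 0.632 CPM in WT. For all 4 the zed1-D libraries at 48 h exceeded every earlier zed1-D library, as for 91 of the 115 and 11.4% of all genes. Before 48 h none of the 8 was called in the 4 comparisons, where 0.689% to 10.4% of all tested genes were called in a given direction. With the block 5 were higher and none lower in zed1-D at 12 h against 0 h, where 24.4% and 19.5% of all tested genes were. At 3 h the blocked counts in zed1-D were 2 higher and 1 lower (12.8% and 11.1% of all), and in WT 2 were higher at 3 h and 2 at 12 h (9.35% and 10.4% of all) and none lower.

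Genes known to respond to low oxygen were 5. Of these, 4 were among the 20 with the largest mean d at 48 h, ranked among genes averaging at least 2 CPM in zed1-D then. The rule read that value and the group was formed afterwards, so the rank only describes the genes. AT4G10270 and AT4G10265 encode wound-responsive family proteins, AT5G39890 a thiol dioxygenase of the family that senses oxygen in plants, and SUS4 a sucrose synthase. AT4G10270 was at 4.80 and 9.34 CPM in zed1-D (0 h), 9.13 and 12.0 (3 h), 6.98 and 9.87 (12 h) and 22.1 and 37.7 (48 h). WT held 5.12 and 9.56, 8.43 and 12.5, 5.597 and 7.11, and 7.18 and 9.58 CPM. The genotypes overlapped at every hour but 48. AT4G10265 was at 4.08 and 3.70 CPM in zed1-D at 48 h, against 0.756 and 0.0903 CPM in WT.

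SUS4 had 24.3 and 19.8 CPM in zed1-D at 48 h, against 6.80 and 6.69 CPM in WT, where it lay below all earlier WT libraries. AT5G39890 was at 8.93 and 6.45 CPM in zed1-D, against 0.567 and 1.72 CPM in WT. AT1G19530, annotated as a DNA polymerase epsilon subunit, was at 7.96 and 15.3 CPM in zed1-D, against 1.32 and 4.43 CPM in WT. Its gene lay in a list of 23 low-oxygen genes assembled after the result was known, together with the other 4 and ACO1. Of that list 11 had d of at least 1 in both pairs (3.77% of all genes), and its median d at 48 h was 1.35. ADH1, alcohol dehydrogenase, is one that the limit removed, with a mean d of 0.60 at 3 h and 2.56 at 48 h. None of the 5 was called in a tested comparison, where 0.689% to 10.4% of all tested genes were called in a given direction. With the block 2 were higher in WT at 3 h (9.35% of all tested genes). None was called with it in the other 3 comparisons, where 10.4% to 24.4% of all were in a given direction. Nothing is read from such counts among 5 genes.

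Transcription factors outside the clock numbered 8. RAV2, also named TEM2, is a repressor of flowering. It was at 4.203 and 6.29 CPM in zed1-D (0 h), 6.84 and 6.03 (3 h), 18.4 and 13.2 (12 h) and 12.4 and 11.1 (48 h). WT held 8.02 and 5.51, 5.27 and 4.005, 13.1 and 9.65, and 1.89 and 1.81 CPM. Here the zed1-D libraries at 48 h lay below those at 12 h, and WT at 48 h was the lowest of all. RAV2 rose in zed1-D at 12 h (1.54, SE 0.32, edgeR adjusted p = 0.00697), but not without zed1-D 0 h replicate 1 (0.0659) or 12 h replicate 1 (0.0538). EDF3, of the same family, was at 6.41 and 10.4 CPM in zed1-D at 48 h, against 1.89 and 1.99 CPM in WT.

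NAC083, a NAC factor that restrains xylem vessel formation, was at 142 and 129 CPM in zed1-D at 48 h, against 54.2 and 50.6 CPM in WT. All other libraries lay between 50.4 and 70.3 CPM. It was the member of a list of 22 senescence genes, 12 of which had d of at least 1 in both pairs at 48 h, as did 3.77% of all genes. MYB59 was at 11.1 and 16.2 CPM in zed1-D, against 3.02 and 5.96 CPM in WT. LBD39, a repressor of nitrogen and anthocyanin genes, was at 16.9 and 19.1 CPM in zed1-D, against 6.80 and 6.14 CPM in WT. AT4G04404, a zinc finger protein, was at 9.32 and 4.84 CPM in zed1-D, against 0.945 and 1.63 CPM in WT. Its zed1-D libraries at 48 h overlapped those of the earlier hours.

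Metabolic enzymes were 12. CAT2, the main leaf catalase, was at 134 and 110 CPM in zed1-D (0 h), 359 and 290 (3 h), 202 and 150 (12 h) and 464 and 390 (48 h). WT held 162 and 124, 490 and 379, 285 and 239, and 214 and 171 CPM. WT exceeded zed1-D in both pairs at 0, 3 and 12 h, and zed1-D exceeded WT at 48 h. CAT2 rose at 3 h in zed1-D (1.37, SE 0.29, edgeR adjusted p = 0.0323) and WT (1.61, SE 0.29, 0.0185). Without the block, the zed1-D call was lost without any 1 library. The WT call was lost without WT 0 h replicate 1, WT 0 h replicate 2 or WT 3 h replicate 1. With the block and all libraries the edgeR adjusted p was 7.34e-16 in zed1-D and 3.94e-18 in WT.

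SQE6, annotated as a squalene monooxygenase, was at 64.5 and 73.2 CPM in zed1-D at 48 h, against 28.0 and 33.0 CPM in WT. Its climb began earlier in both genotypes, with 21.7 and 21.2 CPM in zed1-D at 12 h, against 9.21 and 8.98 CPM at 0 h, and 26.3 and 29.1 CPM in WT at 12 h, against 5.46 and 8.11 CPM at 0 h. SQE6 rose at 12 h by 1.22 in zed1-D (SE 0.17, edgeR adjusted p = 0.000675) and by 1.97 in WT (SE 0.18, 0.000407), and both calls held without each library. At 3 h it rose by 1.61 in WT (SE 0.18, edgeR adjusted p = 0.00105) and by 1.04 in zed1-D (SE 0.17, 0.00899). The zed1-D call at 3 h was lost without 0 h replicate 1 (0.0698), 0 h replicate 2 (0.117) or 3 h replicate 2 (0.108).

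Transporters included AT1G68570, of the major facilitator superfamily, at 264 and 262 CPM in zed1-D at 48 h, against 117 and 108 CPM in WT. Both genotypes exceeded all their earlier libraries at 48 h. TDT, the malate carrier of the vacuole, likewise had 53.2 and 59.1 CPM in zed1-D, against 24.9 and 25.3 CPM in WT. UMAMIT33, of a family of amino acid exporters, was at 2.52 and 3.04 CPM in zed1-D, against 0 and 0.0903 CPM in WT. Small heat shock proteins were 2, AT1G53540 and ATHSP22.0. The second had no read in any WT library before 48 h and was at 2.72 and 2.56 CPM in zed1-D at 48 h, against 0.378 and 0.271 CPM in WT.

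Among genes with no assigned role, AT2G15020 was high at 3 and 48 h, as the morning clock genes were. It was at 8.56 and 8.20 CPM in zed1-D at 3 h, against 1.00 and 0.539 CPM at 0 h, and at 7.59 and 13.8 CPM in WT at 3 h, against 0.854 and 0.676 CPM at 0 h. The rise was 3.52 in zed1-D (SE 0.43, edgeR adjusted p = 0.00192) and 3.85 in WT (SE 0.42, 0.00103), with the zed1-D call lost without 0 h replicate 2 (0.0531). At 48 h it was at 11.8 and 18.8 CPM in zed1-D, against 3.97 and 5.42 CPM in WT. AT1G80130, a TPR-like protein, rose in zed1-D at 12 h (1.28, SE 0.18, edgeR adjusted p = 0.000782) and kept the call without each library. AT5G19875 was at 35.1 and 28.0 CPM in zed1-D at 48 h, against 10.4 and 7.05 CPM in WT. AT1G13650 was below WT in both pairs at 3 and 12 h and above it at 48 h, with 18.8 and 29.9 CPM in zed1-D, against 4.73 and 9.67 CPM in WT.

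Gene lists drawn up for this tissue and treatment held 10 of the 115 genes, spread over 7 of 35 lists. These were 1.35% of the 743 listed genes, where 0.452% of all genes were members. Salicylic acid defence had 16 of 19 genes with d of at least 1 in both pairs at 48 h, and none of them was a member. Over all genes that share was 3.77%, and 1.11% had d of at most -1 in both pairs. Of 29 jasmonate genes 7 were at or above 1 and 4 at or below -1 in both pairs, with a median d of -0.05 and no member, and the summed CPM of the list at 48 h was 3834 and 3137 in zed1-D, against 7177 and 5785 in WT. Of 33 drought and abscisic acid genes 0 were at or above 1 and 3 at or below -1, with a median d of -0.05 and no member. In a list of 23 nucleolus and ribosome assembly genes, assembled after the result was known, 6 were members, no other had d of at least 1 in both pairs, and the median d at 48 h was 0.77. The summed CPM of that list in zed1-D was 2146 and 2646 at 48 h, against 2133 and 2643 at 0 h. In WT it was 1163 and 1503 at 48 h, against 1672 and 2277 at 0 h.

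On a per-length scale, by the authors' RPKM, the most abundant members in zed1-D at 48 h were CWLP (mean 989, against 418 in WT), DIR1 (353, against 121), EXPA1 (291, against 57.0), LTP2 (202, against 80.4) and GASA6 (194, against 73.2). CWLP stood well above DIR1, and LTP2 and GASA6 were close. Median gene length in the files was 1240 bases for the 115 and 1419 for all genes, and median GC content was 40.8% and 41.1%. The W-box (TTGACC or TTGACT), bound by WRKY factors, was in 23.7% of the 114 windows and in 28.5% of all, and in 44.8% of those of the 845 genes that were past the limit earlier. The heat shock element (GAANNTTC) was in 9.65% of the 114 windows, 9.55% of all windows and 16.0% of those of the 845 genes. Neighbouring loci among the 115 were few: AT5G64100 with AT5G64110, TIM13 with RPL3B, CWLP with AT3G22121.1, and the run ATHSP22.0, AT4G10265 and AT4G10270, each with at most 1 gene between.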

How the data were processed

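RNA from 16 libraries was analysed, grouped and numbered by the sample titles. Per the file headers, the deposited files give counts of uniquely mapped reads per gene and RPKM computed by the authors from them. Per the submitters' processing notes the reads were placed on TAIR10. How they were aligned, counted and assigned to a strand is not given in the sources used here. Files list only genes with a read, so a missing gene was taken as 0. CPM used each library's counted total of 4.74 M to 11.39 M reads, and intervals and floors cover counting error only. Symbols, products and promoter windows came from RefSeq TAIR10.1 (all 115 genes matched, 114 had a window). TAIR10.1 was used for names and windows alone, and no coordinate was taken from the deposited files.

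Counts were fitted with edgeR 4.0.16 (limma 3.58.1, R 4.3.3), TMM scaling, the default filter (19312 genes) and 1 mean per group, with 8 residual degrees of freedom and 4 two-sided contrasts of time within a genotype, adjusted by Benjamini-Hochberg within a contrast over all tested genes. The fit was also run on simulated counts drawn without a replicate effect, so that run cannot check it for libraries that deviate together. No result of that run is given here. The numbers were taken to pair libraries, since same-numbered libraries deviated together (correlations 0.527 to 0.708 over 28 pairs of groups), a pairing seen in the data and not stated in the labels. Alternatives were other pseudocounts, limits and scalings, no filter, a replicate block, the compared groups alone, each library left out, and DESeq2 1.42.0.

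The members, gene lists and role groups were chosen with earlier results of these data known. Roles, 3 lists (nucleolus, clock, low oxygen) and 2 motifs were added after the genes were seen. Named genes were those with the largest d or the highest CPM in zed1-D at 48 h, listed genes, neighbours of the thresholds, those with the smallest p in each contrast, members of families or runs of loci, and those with the closest pairs. Others, such as ADH1, HDT4 and EDF3, were named after their values were seen. The largest d was ranked among genes averaging at least 2 CPM in zed1-D at 48 h.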

Additional observations from a re-analysis of the deposited data

How the results depend on the processing

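The number of genes kept depended on how the rule was set. It was 189 with the difference of group means, 61 with a limit of 0.3 at the earlier hours, 201 with a limit of 0.8, 18 with d of at least 1.5, and 216 to 267 with 1 pair alone. Pseudocounts of 0.5 and 2 CPM and TMM scaling kept 143, 98 and 100, of which 101, 77 and 95 were among the 115. Median d at 48 h was 1.45 and 1.22 with those pseudocounts and 1.29 with TMM scaling. With the replicate number as a block, 47 of the 112 were called in zed1-D at 3 h and 52 at 12 h, and 41 in WT at 3 h and 39 at 12 h. Without it these counts were 13, 19, 11 and 3. All calls without the block were also made with it. With the 2 compared groups alone, edgeR called 0 in zed1-D at 3 h, 6 at 12 h, and 0 in WT at either hour, with 28, 28, 22 and 23 at an unadjusted p under 0.05. Over all genes in those fits, 5.26% were higher and 0.739% lower in zed1-D at 12 h, and none was called in the other comparisons. The share over all genes at the unadjusted p was not taken, and nothing is read from those counts. Without 1 library it called 3 to 8 in zed1-D at 3 h, 8 to 13 at 12 h, 5 to 7 in WT at 3 h and 1 to 2 at 12 h. DESeq2 called 17 and 20 in zed1-D, and 16 and 7 in WT. The cause of these shifts was not tested. Of 414 values of called genes under the alternatives, 270 stayed past the threshold, 144 did not and 0 reversed. Genes under a few CPM rest on few reads, and no depth limit was set for them.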
